A study of Saccharomyces cerevisiae with 15 samples.

Results

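The 33 genes described here cover sterol synthesis, transport and regulation in budding yeast, Saccharomyces cerevisiae. They were taken from a list by gene symbol, with no threshold on a measured value but with earlier results of these data known, and all 33 were on the array, with 45 probe sets among the 5656 genes that had a probe set of their own. The list runs from the mevalonate pathway (9 genes) through squalene to lanosterol (3 genes) and lanosterol to ergosterol (12 genes) to regulators (3 genes), esterification (2 genes) and transport and uptake (4 genes). ERG12, AUS1 and NCR1 had several probe sets, and each of the other 30 genes had 1.

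Ergosterol is the main sterol of fungal membranes and takes the place that cholesterol has in animal cells. Its synthesis starts from acetyl-CoA, passes through mevalonate and farnesyl diphosphate, and needs oxygen and heme at several of the later steps. Upc2 and Ecm22 are related transcription factors that regulate ergosterol genes, surplus sterol is stored as esters, and yeast takes up sterol from the medium mainly when oxygen is short.

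The series modelled Huntington's disease in haploid MATa cells of the BY4741 background, which expressed a fragment of human huntingtin (Htt) under galactose induction. The 5 groups, with 3 arrays each, were strains with UME1, MBF1 or BNA4 deleted that expressed the mutant fragment with 103 glutamines, the otherwise wild-type strain with the same fragment (Htt103Q), and the wild-type strain with the fragment of 25 glutamines (Htt25Q). BNA4 encodes kynurenine 3-monooxygenase of NAD synthesis from tryptophan, MBF1 a transcriptional coactivator and UME1 a subunit of the Rpd3 histone deacetylase complex, and the design text calls the deletions suppressors. Cultures of 12 mL grew at 30 °C in uracil-free medium with 2% galactose from an OD600 of 0.2 to about 1, and the labels do not say whether the 3 arrays of a group came from separate cultures or how many clones were used. No deletion strain with Htt25Q and no strain without Htt is among the groups.

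Values are log2 signals of Affymetrix Yeast Genome S98 probe sets, quantile normalized over the 15 arrays unless called deposited, so 1 unit is a doubling relative to the other probe sets. They do not compare levels between genes. The deposited values formed 2 processing sets that differ in their lowest value and median: 9 arrays of ume1 deletion, Htt103Q and Htt25Q, and 6 arrays of mbf1 deletion and bna4 deletion. Comparisons were therefore made within a set, and a probe set was called at a Benjamini-Hochberg adjusted p under 0.05 over 9275 probe sets in limma. The deleted genes matched the labels, with UME1 at 2.65, 2.31 and 2.04 in the ume1 deletion against 6.72 to 7.02 in Htt103Q, MBF1 at 2.11, 2.11 and 2.05 in the mbf1 deletion against 10.40 to 10.67 in the bna4 deletion, and BNA4 at 7.72, 7.85 and 7.95 in the mbf1 deletion against 2.04, 2.04 and 2.27 in the bna4 deletion. Over the 15 arrays the 6 MATa marker genes read 7.21 to 13.09 and the 4 MATalpha marker genes 2.04 to 6.93, given as a description since levels of different genes cannot be ranked. Array 1 of Htt25Q stood apart, with the 3 prime actin probe set 2.48 above the 5 prime one, against −0.33 to 0.31 on the other 14 arrays, and calls against Htt25Q are given with and without it. Array 1 of the ume1 deletion stood apart in the deposited 18S ribosomal RNA control, at 10.39 against 6.49 and 7.30 on the other ume1 arrays and 5.94 to 7.21 in Htt103Q. Htt25Q array 1 was also above its group in this control, at 8.08 against 5.90 and 6.10.

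In the mbf1 deletion against the bna4 deletion, 10 of the 33 sterol genes were called, while 10.5% of all probe sets (5.74% higher and 4.81% lower) and 12.7% of all genes were called in that comparison. The sterol transport gene HES1, the regulators UPC2 and SUT1 and the late synthesis genes ERG25, ERG3 and ERG6 were lower in the mbf1 deletion, and HMG1, ERG20, ERG5 and NCR1 were higher. Signals of the 3 mbf1 arrays lay wholly above or below those of the 3 bna4 arrays for 22 of the 33 genes, against 37.3% of all probe sets. Shares of arrays lying apart are given over all 9275 probe sets, 2443 of them without a gene, and were not computed over genes. The median absolute log2 difference was 0.405 over the sterol genes and 0.206 over all genes, and the median signed difference was −0.11 over the sterol genes and −2.2e-05 over all genes. Of the 33 differences 13 were positive and 20 negative.

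HES1, on chromosome XV at 781994 to 783298 (R64 assembly, as for all positions here), encodes an oxysterol-binding protein homologue of the family that transfers sterols between membranes. Its signal was 2.28, 2.17 and 2.43 in the mbf1 deletion, against 5.89, 6.28 and 6.45 in the bna4 deletion. All 3 bna4 arrays were far above all 3 mbf1 arrays, and the difference of −3.91 (95% confidence interval −4.41 to −3.42, adjusted p = 1.6e-06) passed the test. The deposited mbf1 values lay 0.19 to 0.77 above the lowest value of that set, so the size of the fold change depends on the low end of the scale. In the first set HES1 was also near the lowest value, with means of 2.12 in the ume1 deletion, 2.43 in Htt103Q and 2.30 in Htt25Q. KES1, the close relative of HES1, had 9.44, 9.31 and 9.68 in the mbf1 deletion against 8.98, 9.11 and 9.13 in the bna4 deletion and was not called (0.41, adjusted p = 0.636).

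Among the regulators, UPC2 (chromosome IV, 889751 to 892492) had 4.23, 4.17 and 3.86 in the mbf1 deletion, against 5.99, 5.48 and 6.07 in the bna4 deletion. The arrays did not overlap, and the difference was −1.76 (−2.26 to −1.26, adjusted p = 0.000624), a signal 3.39 times as high in the bna4 deletion. SUT1 (chromosome VII, 198138 to 199037), a transcription factor known for promoting sterol uptake, had 6.24, 6.16 and 6.09 in the mbf1 deletion against 7.34, 7.70 and 7.66 in the bna4 deletion, again without overlap, with a difference of −1.40 (−1.98 to −0.83, adjusted p = 0.00562). ECM22, the paralogue of UPC2, had 7.60, 7.82 and 6.66 in the mbf1 deletion against 7.27, 6.78 and 7.36 in the bna4 deletion. Its arrays overlapped and it was not called (0.23, −0.41 to 0.86, adjusted p = 0.812).

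**Figure D1:**
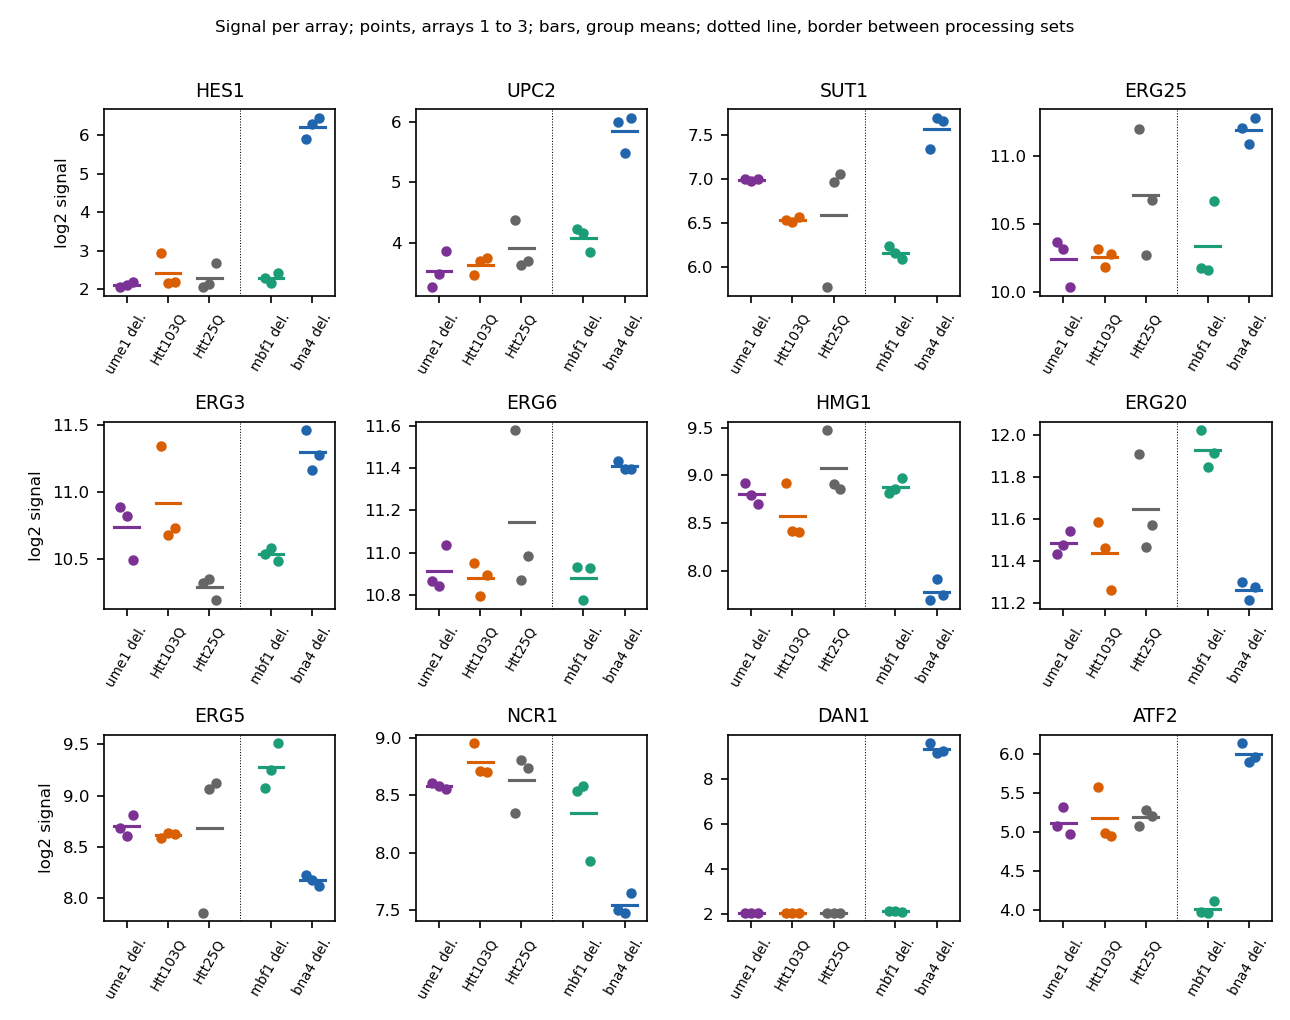
Log2 signal (vertical axis, scaled for each gene) on each array for the 10 sterol genes called in the mbf1 deletion against the bna4 deletion and for DAN1 and ATF2, with points for arrays, bars for group means and a dotted line between the 2 processing sets. HES1 and DAN1 were near the lowest values in every group except the bna4 deletion, where they averaged 6.21 and 9.35. HMG1, ERG20, ERG5 and NCR1 were lower in the bna4 deletion than in the mbf1 deletion. Across the dotted line, strain and processing set cannot be told apart.

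Called genes of the steps from lanosterol to ergosterol went both ways. ERG25 (chromosome VII, 610564 to 611493), a sterol methyl oxidase that needs oxygen and iron, had 10.17, 10.16 and 10.67 in the mbf1 deletion, against 11.20, 11.09 and 11.28 in the bna4 deletion, a difference of −0.86 (−1.32 to −0.40, adjusted p = 0.0226). ERG3 (chromosome XII, 253861 to 254958), a sterol desaturase, had 10.54, 10.58 and 10.49 in the mbf1 deletion, against 11.46, 11.17 and 11.28 in the bna4 deletion (difference −0.76, −1.12 to −0.41, adjusted p = 0.0116). For both genes every mbf1 array was below every bna4 array. ERG6 (chromosome XIII, 251839 to 252990), the sterol methyltransferase, had 10.93, 10.77 and 10.93 in the mbf1 deletion, against 11.44, 11.40 and 11.40 in the bna4 deletion (difference −0.53, −0.85 to −0.21, adjusted p = 0.0419). ERG5 (chromosome XIII, 300869 to 302485), a second desaturase and a cytochrome P450, went the other way, with 9.07, 9.25 and 9.51 in the mbf1 deletion, against 8.23, 8.17 and 8.12 in the bna4 deletion (difference 1.11, 0.52 to 1.69, adjusted p = 0.0224). The other 8 genes of these steps were not called, and their differences ran from −0.52 for NCP1, the reductase that serves the P450 enzymes, to 0.17 for ERG27.

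In the mevalonate and farnesyl steps, 2 of 9 genes were called, beside 12.7% of all genes, and both were higher in the mbf1 deletion, as were 5.74% of all probe sets. HMG1 (chromosome XIII, 115734 to 118898), the main HMG-CoA reductase isozyme and a rate-limiting enzyme of the pathway, had 8.81, 8.85 and 8.97 in the mbf1 deletion, against 7.69, 7.91 and 7.74 in the bna4 deletion (difference 1.1, 0.72 to 1.48, adjusted p = 0.00178). Its second isozyme HMG2 had 7.48, 7.34 and 6.60 in the mbf1 deletion against 7.38, 7.17 and 7.38 in the bna4 deletion and was not called (−0.17, adjusted p = 0.942). ERG20 (chromosome X, 105014 to 106072), farnesyl diphosphate synthase, had 12.02, 11.85 and 11.91 in the mbf1 deletion, against 11.30, 11.22 and 11.28 in the bna4 deletion (difference 0.66, 0.42 to 0.90, adjusted p = 0.00249). Neither HMG1 nor ERG20 had overlapping arrays. The remaining 7 genes ranged from −0.51 for ERG12 to 0.50 for ERG8, both kinases of the pathway, and the 3 genes from squalene to lanosterol from −0.29 for ERG9, squalene synthase, to −0.05 for ERG7, lanosterol synthase.

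NCR1 (chromosome XVI, 544631 to 548143) encodes a vacuolar membrane protein related to the human Niemann-Pick C1 sterol transporter. Its brightest probe set read 8.54, 8.58 and 7.93 in the mbf1 deletion, against 7.50, 7.47 and 7.65 in the bna4 deletion (difference 0.81, 0.44 to 1.18, adjusted p = 0.0104). Of its other 4 probe sets 3 were also called higher, with differences of 1.19, 2.01 and 3.52 (adjusted p = 0.0363, 0.0339 and 0.0327), and the last read 2.06, 2.05 and 2.76 in the mbf1 deletion against 2.09 to 2.10 in the bna4 deletion. The 3 called ones carry suffixes that Affymetrix gives to probe sets able to match several transcripts. The esterification enzymes differed in direction without a call, ARE1 at −0.46 (adjusted p = 0.083) and ARE2 at 0.51 (adjusted p = 0.289), and the ABC transporter of sterol uptake AUS1 was at −0.52 (adjusted p = 0.315).

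Related genes were also set against each other on the same array, in 4 pairs. The log2 difference within the pair changed by 1.27, mbf1 deletion minus bna4 deletion, for HMG1 minus HMG2, and the changes were −0.96 for ARE1 minus ARE2, −1.98 for UPC2 minus ECM22 and −4.32 for HES1 minus KES1. In each pair the 3 mbf1 arrays lay apart from the 3 bna4 arrays, as they did for 37.3% of all probe sets taken singly. A share over pairs of genes was not computed. An exact test over regroupings of the arrays gave p = 0.1 for each, the smallest possible with 3 arrays against 3, and 0.4 after adjustment. HMG1, UPC2 and HES1 were each also called singly, as given above. In the other 12 of 16 pair comparisons, all within the first set, the arrays overlapped. These pairs were chosen with the values known, so the differences are a description.

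**Figure D2:**
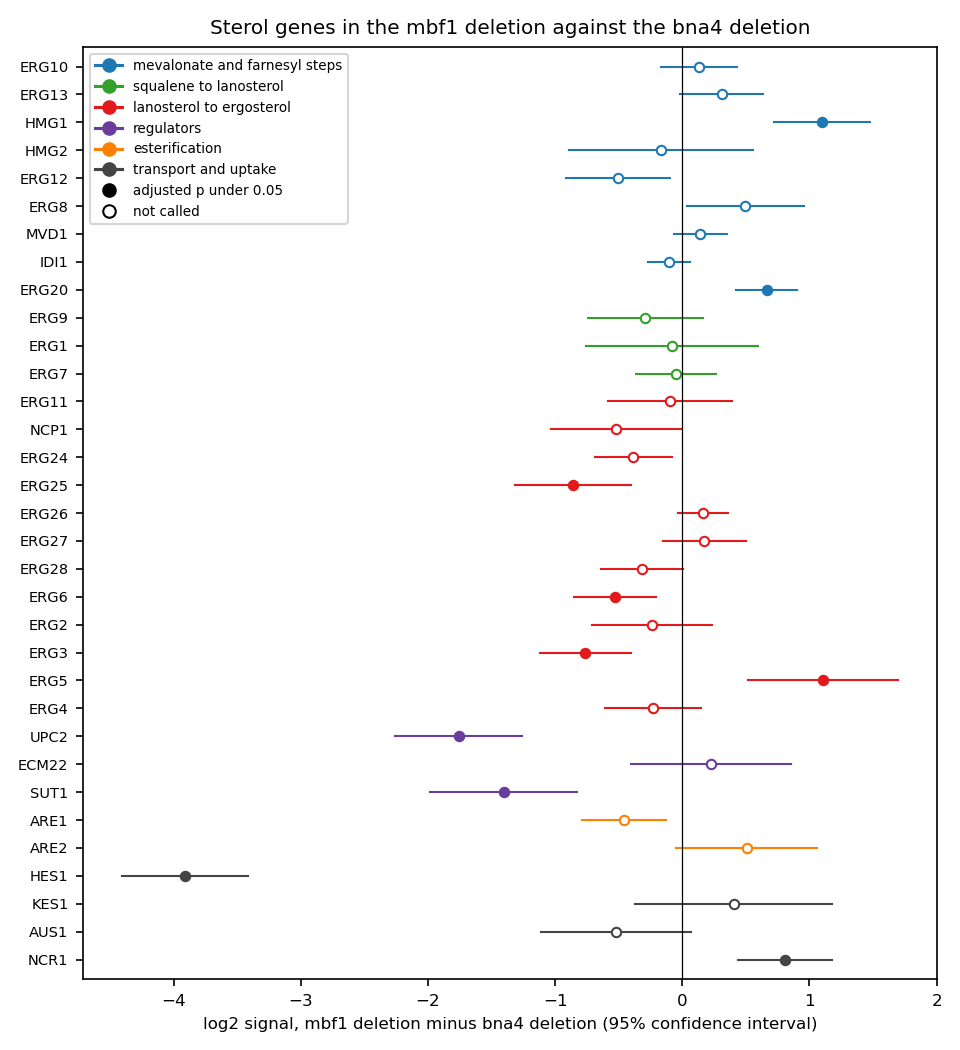
Log2 signal in the mbf1 deletion minus that in the bna4 deletion (horizontal axis) for the 33 sterol genes in pathway order (vertical axis), with 95% confidence intervals from the limma fit and colours for roles. Filled points mark the 10 called genes, from HES1 at −3.91 to ERG5 at 1.11.

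A further 45 genes of sterol ester turnover, sterol transfer, uptake, isoprenoid branches, regulation by oxygen and heme, reductase stability and oxidation were counted, and 8 were called in the mbf1 deletion against the bna4 deletion, or 17.8% beside 12.7% of all genes. DAN1 (chromosome X, 708811 to 709707), a cell wall mannoprotein of anaerobic cells, had 2.12, 2.12 and 2.08 in the mbf1 deletion, against 9.61, 9.19 and 9.26 in the bna4 deletion. The fitted difference was −7.25 (adjusted p = 7.29e-13). The deposited mbf1 values were 0.12 above the lowest value of that set, so neither the size of this difference nor its place among other probe sets is firm. In all 9 arrays of the first set DAN1 was exactly at the lowest value. ATF2, an acetyltransferase that also acts on sterols, had 3.97, 3.96 and 4.12 in the mbf1 deletion, against 6.13, 5.90 and 5.96 in the bna4 deletion (difference −1.98, adjusted p = 1.73e-05). RER2, a prenyltransferase of dolichol synthesis, was lower by a smaller amount (−0.37, adjusted p = 0.0493).

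The other 5 called genes were higher in the mbf1 deletion. They were YSP1, a membrane contact protein of the sterol transfer family, at 1.24 (adjusted p = 0.000114), SSM4, a ubiquitin ligase of the endoplasmic reticulum, at 0.75 (adjusted p = 0.0217), PRY2, a secreted sterol-binding protein, at 0.67 (adjusted p = 0.0212), OSH2, another oxysterol-binding homologue, at 0.58 (adjusted p = 0.031), and HRD3, a partner of the ubiquitin ligase that degrades Hmg2, at 0.54 (adjusted p = 0.00449). None of the 5 regulators by oxygen and heme was called by limma, and 1 of them had an unadjusted p under 0.05. ROX1, a repressor of anaerobic genes, read 7.33, 7.16 and 6.82 in the mbf1 deletion against 6.70, 6.98 and 6.91 in the bna4 deletion (0.24, adjusted p = 0.955).

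The arrays of these 2 strains also differed in the 18S ribosomal RNA control, which read 9.92, 9.66 and 10.72 in the mbf1 deletion against 11.11, 11.09 and 10.99 in the bna4 deletion, and its part in these results was not tested. HMG1, ERG20, UPC2 and SUT1 kept their call in all 16 alternative settings tried, and HES1 in the 15 that retained it. The call for ERG6 was lost on leaving out any 1 of the 6 arrays (adjusted p up to 0.132), for ERG25 on leaving out any except mbf1 array 3 (up to 0.0852), for ERG5 any except mbf1 array 1 (up to 0.0733), and for ERG3 bna4 array 1 (0.0519). NCR1 was not called when the fit held the arrays of this set alone (adjusted p = 0.0735).

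In Htt103Q against Htt25Q, which asks what the expanded fragment changes, 2 of the 33 sterol genes were called and both were lower in Htt103Q, beside 4.44% of all probe sets and 6.42% of all genes. The 33 genes thus had 6.06% called, near the background, and the arrays of 7 of them did not overlap, against 18.9% of all probe sets. Of all probe sets 2.06% were higher and 2.38% lower. ERG24 (chromosome XIV, 109095 to 110411), a sterol reductase, had 8.30, 8.35 and 8.50 in Htt103Q, against 9.30, 8.84 and 8.80 in Htt25Q, a difference of −0.59 (−0.90 to −0.29, adjusted p = 0.0352). IDI1 (chromosome XVI, 327864 to 328730), isopentenyl diphosphate isomerase, had 8.88, 8.82 and 8.85 in Htt103Q, against 9.12, 9.13 and 9.21 in Htt25Q, a difference of −0.30 (−0.47 to −0.14, adjusted p = 0.043). Neither gene's arrays overlapped. ERG3 was higher by 0.63 without a call (adjusted p = 0.0553), with 11.35, 10.68 and 10.73 in Htt103Q against 10.32, 10.36 and 10.20 in Htt25Q, and AUS1 was at −0.97 (adjusted p = 0.0734), or −0.64 without Htt25Q array 1 (0.132).

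The median difference over the 33 genes was −0.17 in Htt103Q against Htt25Q, with −0.01 over all genes, and −0.053 without Htt25Q array 1. That array lay more than 0.5 from the mean of the other 2 Htt25Q arrays for 19 of the 33 genes, 12 above and 7 below, as it did for 44.6% of all genes, a margin set after the values were seen. For KES1 it read 6.63 against 8.33 and 8.13 on the other Htt25Q arrays, and for SUT1 5.77 against 6.96 and 7.06. ERG24 was not called without it (−0.44) or without any single Htt103Q array (adjusted p up to 0.294 over all settings). IDI1 lost its call without any single array of either group (up to 0.150 over all settings, and −0.32 without Htt25Q array 1). The fit without Htt25Q array 1 called 2 other sterol genes, both lower in Htt103Q, beside 5.37% of all probe sets. When only the 9 arrays of the first set were fitted, IDI1 was called on the deposited values (adjusted p = 0.0317) but not after quantile normalization of that set, and ERG24 was called in neither (0.125 on the deposited values).

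**Figure D3:**
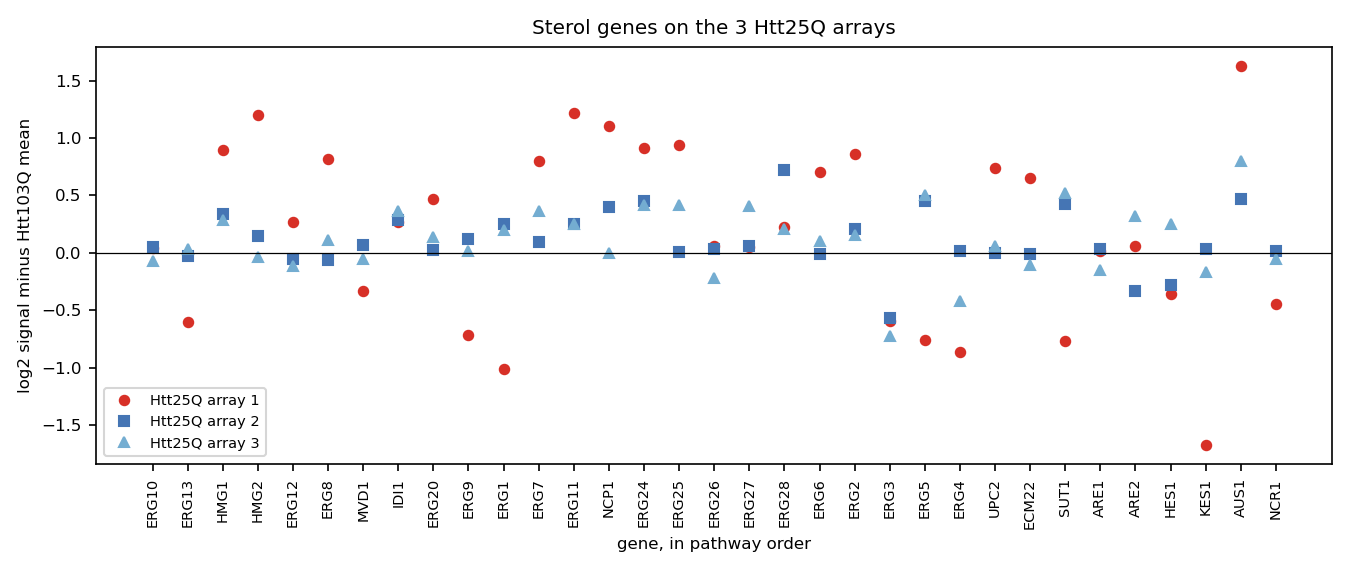
Log2 signal of the 33 sterol genes on each of the 3 Htt25Q arrays, minus the Htt103Q mean of the same gene (vertical axis), in pathway order (horizontal axis). Circles for array 1 lie apart from arrays 2 and 3 at many genes, in both directions, with KES1 and AUS1 at the extremes.

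The ume1 deletion against Htt103Q had 2 called sterol genes of 33, both higher, beside 2.60% of all probe sets (1.60% higher and 1.00% lower) and 3.20% of all genes. ARE2 (chromosome XIV, 665339 to 667267), an acyltransferase that makes sterol esters, had 6.36, 6.22 and 6.88 in the ume1 deletion, against 4.77, 5.57 and 5.55 in Htt103Q, a difference of 1.19 (0.63 to 1.74, adjusted p = 0.034) or 2.28 times the signal. MVD1 (chromosome XIV, 701895 to 703085), mevalonate diphosphate decarboxylase, had 9.97, 9.83 and 9.80 in the ume1 deletion, against 9.58, 9.42 and 9.37 in Htt103Q, a difference of 0.41 (0.20 to 0.62, adjusted p = 0.0474). The arrays of both genes lay apart. ARE1, the second acyltransferase, had 8.17, 7.96 and 7.86 in the ume1 deletion against 7.78, 7.42 and 7.23 in Htt103Q, without overlap or a call (0.51, adjusted p = 0.126), and IDI1 was at 0.31 (adjusted p = 0.055).

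Arrays lay apart for 14 of the 33 genes in the ume1 deletion against Htt103Q, against 20.4% of all probe sets, a share not computed over genes. The median difference was −0.02 over the sterol genes and 0 over all genes. None of the 45 further genes was called by limma, beside 3.20% of all genes, and 2 had an unadjusted p under 0.05. Neither call held when only the arrays of the first set were fitted (adjusted p = 0.185 for ARE2 and 0.239 for MVD1). Without ume1 array 1 the differences were 1.25 for ARE2 (adjusted p = 0.0699) and 0.36 for MVD1 (0.161), and the part of its 18S signal in them was not tested. ARE2 was also lost without ume1 array 3 or any Htt103Q array, and MVD1 without any ume1 array or Htt103Q array 2 or 3. Over all settings the adjusted p reached 0.202 for ARE2 and 0.265 for MVD1.

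Set against Htt25Q, with which the previous comparison shares the ume1 arrays, the ume1 deletion had 4 called sterol genes, beside 7.86% of all probe sets (4.18% higher and 3.68% lower) and 10.6% of all genes. The arrays lay apart for 9 of the 33, against 21.4% of all probe sets. ARE2 was higher by 1.17 (adjusted p = 0.0174), with 5.36, 4.96 and 5.62 in Htt25Q. ARE1 was higher by 0.55 (adjusted p = 0.0491), with 7.49, 7.52 and 7.33 in Htt25Q, and MVD1 by 0.51 (adjusted p = 0.00761), with 9.13, 9.52 and 9.41 in Htt25Q. AUS1 (chromosome XV, 349679 to 353863) was the lower one, with 4.04, 4.29 and 4.69 in the ume1 deletion, against 6.43, 5.27 and 5.60 in Htt25Q, a difference of −1.43 (−2.02 to −0.84, adjusted p = 0.00859). The Htt103Q arrays of AUS1, at 4.71, 4.82 and 4.88, lay between those of the ume1 deletion and Htt25Q, and its other 5 probe sets were dim and not called. In the ume1 deletion against Htt103Q, AUS1 was at −0.46 without a call.

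In fits to the first set alone none of these 4 was called, with adjusted p of 0.0827 for ARE2, 0.162 for ARE1, 0.0773 for MVD1 and 0.0554 for AUS1. Without Htt25Q array 1, ARE2 (1.2, adjusted p = 0.0315), MVD1 (0.40, 0.0078) and AUS1 (−1.10, 0.00885) were called in the fit to the remaining 14 arrays and ARE1 was not (0.57, 0.0748). ERG5, not called with all arrays, was called lower in that fit. ARE1 lost its call without any single array of either group (up to 0.188 over all settings), and ARE2 without Htt25Q array 2 (up to 0.180 over all settings). Of the 45 further genes 6 were called, or 13.3%, near the 10.6% of all genes. SAY1, a sterol deacetylase (−0.94), YEH1, a steryl ester hydrolase (−0.88), CDC43, a prenyltransferase subunit (−0.82), SUT2, a relative of SUT1 (−0.74), and RER2 (−0.50) were lower in the ume1 deletion than in Htt25Q, with adjusted p of 0.0127 to 0.0216, and SWH1, an oxysterol-binding homologue, was higher (0.58, adjusted p = 0.0288). Without Htt25Q array 1 the call was lost for SUT2 (−0.66, adjusted p = 0.0564) and held for the other 5 (adjusted p of 0.00351 to 0.0374). Without ume1 array 1 it was lost for YEH1 (0.0543) and SWH1 (0.106). SUT2 was also the only one of the 45 called in Htt103Q against Htt25Q, or 2.22% beside 6.42% of all genes. It read 4.85 to 5.11 in Htt103Q against 5.83 to 6.18 in Htt25Q (difference −1.03, adjusted p = 0.00568, and −0.95 with adjusted p = 0.0175 without Htt25Q array 1).

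**Figure D4:**
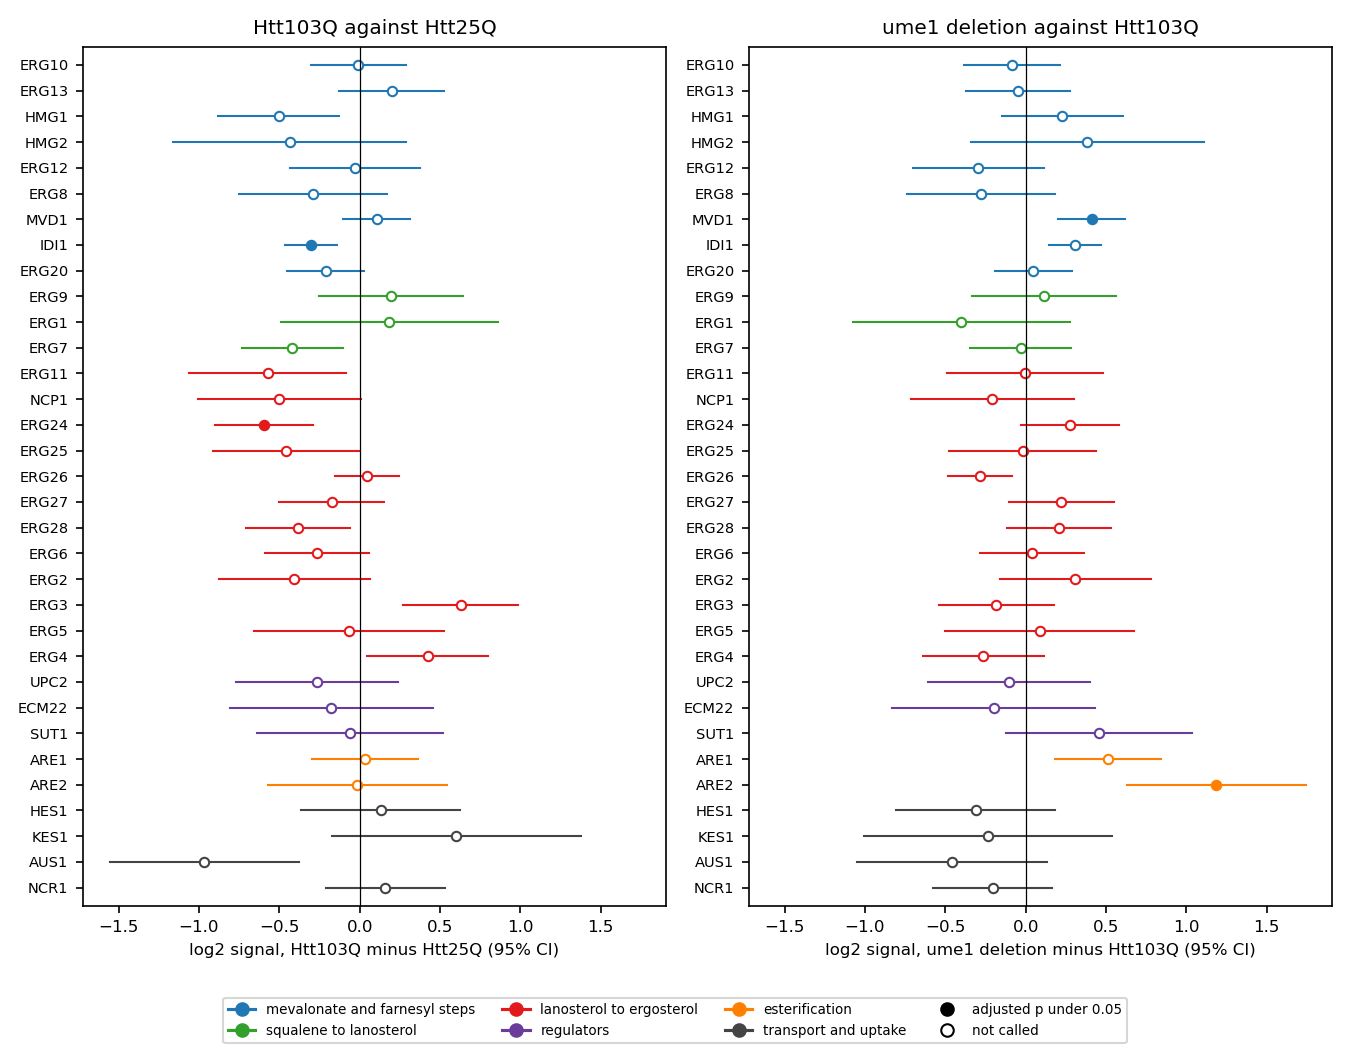
Log2 signal differences with 95% confidence intervals (horizontal axes) of the 33 sterol genes (vertical axes) in Htt103Q minus Htt25Q (left) and in the ume1 deletion minus Htt103Q (right), coloured by role. Filled points mark called genes, ERG24 and IDI1 on the left and ARE2 and MVD1 on the right, and the panels share the Htt103Q arrays.

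The bna4 and mbf1 deletions can be set against Htt103Q only across the processing sets, where strain and set cannot be told apart. Of the 33 genes, 17 were called in the bna4 deletion, 13 higher and 4 lower, where 44.1% of all probe sets were called (20.8% higher and 23.2% lower). In the mbf1 deletion 8 were called, 7 higher and 1 lower, beside 36.5% of all probe sets (17.4% higher and 19.1% lower). HES1 was at 3.78, UPC2 at 2.20 and SUT1 at 1.03 in the bna4 deletion minus Htt103Q. Centring the deposited values on the array medians in place of quantile normalization gave a median over the 33 genes of −0.0092 for the bna4 deletion in place of 0.38, and of −0.12 for the mbf1 deletion in place of 0.15, so the sign of this median depends on the scaling. The calls depend on it too: with median centring 9 genes were higher and 8 lower in the bna4 deletion, and 6 higher and 10 lower in the mbf1 deletion, while uncentred deposited values gave 14 higher and 2 lower in the mbf1 deletion.

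Among the genes with no call within a set, ERG11, the lanosterol demethylase that azole drugs inhibit, had 10.52, 10.44 and 10.83 in the mbf1 deletion against 10.70, 10.72 and 10.66 in the bna4 deletion, with overlapping arrays (difference −0.10, −0.58 to 0.39). In Htt103Q it read 10.51, 10.64 and 10.38, against 11.73, 10.76 and 10.76 in Htt25Q (difference −0.57, −1.06 to −0.09), and array 1 was the highest of the Htt25Q arrays. ERG1, squalene epoxidase, had 10.13, 10.18 and 10.42 in the mbf1 deletion against 10.33, 10.27 and 10.37 in the bna4 deletion (difference −0.08, −0.76 to 0.59). NCP1 had 10.26, 10.11 and 9.97 in the mbf1 deletion against 10.68, 10.50 and 10.73 in the bna4 deletion, where the arrays lay apart without a call (difference −0.52, −1.03 to −0.01). ERG26, a sterol dehydrogenase, had 8.55, 8.34 and 8.54 in the ume1 deletion against 8.83, 8.76 and 8.69 in Htt103Q, also apart without a call (difference −0.28, −0.48 to −0.08). The 4 probe sets of ERG12, mevalonate kinase, disagreed in the mbf1 deletion against the bna4 deletion. The brightest was at −0.51, 2 others were at 0.11 and 0.07, and the last was at the lowest value on all 15 arrays.

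The 33 genes also differed in how closely arrays of a group agreed. Their median SD was 0.134 in the ume1 deletion, 0.110 in Htt103Q, 0.355 in Htt25Q, 0.158 with MBF1 deleted and 0.113 with BNA4 deleted, where the medians over all probe sets were 0.177, 0.130, 0.248, 0.137 and 0.0864. Because 1 spread is shared by all groups in the fit, calls against Htt25Q rest partly on arrays less variable than its own. Within a processing set 16 of the 33 genes were called in at least 1 comparison, as were 24.0% of all genes, and 17 in none. The genes with no call are ERG10, ERG13, HMG2, ERG12, ERG8, ERG9, ERG1, ERG7, ERG11, NCP1, ERG26, ERG27, ERG28, ERG2, ERG4, ECM22 and KES1.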

How the data were processed

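Total RNA was labelled with biotin and hybridised to 15 arrays. The deposited table holds log2 signals for 9335 probe sets. The sources used here do not give how the authors summarised and normalized them. The 60 control probe sets were removed, and the other 9275 were quantile normalized over 15 arrays, which removes any overall shift. Several versions of this step (controls in or out, ties averaged or not) were run, and the one giving the same counts as an earlier analysis of these data was kept. Of the probe sets, 6504 matched 1 gene, 328 several and 2443 none by the platform annotation. A gene is represented by the probe set of its own with the highest mean, and all members passed since no filter on low values was used.

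One model of 5 group means was fitted to all 15 arrays with limma (version 3.58.1, R 4.3.3), with two-sided moderated tests and Benjamini-Hochberg adjustment over 9275 probe sets. The self-test on simulated data did not reach the recovery first set as its bar, and the bar was then changed to the share of false calls. Every listed gene is described, with per-array values for those called. The members and gene lists were chosen with earlier results of these data known. P-values measure only the spread between these arrays, which may be technical, and 3 arrays a group limit the precision. The search of promoters for regulatory motifs was not run. Alternatives covered values, samples, weights, the replicate number as a block, dim probe sets, probe sets per gene and arrays left out.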

Additional observations from a re-analysis of the deposited data

How the results depend on the processing

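Values are given in the order Htt103Q against Htt25Q, ume1 deletion against Htt103Q and ume1 deletion against Htt25Q for the first set. Fitting that set alone on deposited values called 134, 46 and 252 probe sets there, in place of 412, 241 and 729, and within the set's own quantile normalization 127, 56 and 243. Of the sterol genes, the deposited values then called 1 lower in Htt103Q against Htt25Q, 0 higher in ume1 deletion against Htt103Q, and 0 higher and 0 lower in ume1 deletion against Htt25Q, and the quantile normalized ones 0, 0, 0 and 0. Fitting only the groups compared called 32, 121 and 75 probe sets, with 0 sterol genes lower, 1 higher, and 0 higher and 0 lower. At these settings the fit has fewer arrays.

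Array weights by limma's gene-by-gene method, chosen after its default failed to converge, are unstable with 3 arrays a group and ran from 0.0633 for Htt25Q array 1 to 4.52 for Htt103Q array 2. They called 1148, 1443 and 1299 probe sets in the first set, with 7 sterol genes lower in Htt103Q against Htt25Q, 6 higher and 1 lower in ume1 deletion against Htt103Q, and 2 lower in ume1 deletion against Htt25Q. They called 2724 in mbf1 deletion against bna4 deletion (7 sterol genes higher, 12 lower), 6286 in bna4 deletion against Htt103Q (20 higher, 9 lower) and 5315 in mbf1 deletion against Htt103Q (13 higher, 5 lower).

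Without Htt25Q array 1 and ume1 array 1 together, 625 and 464 probe sets were called in Htt103Q against Htt25Q and ume1 deletion against Htt103Q, and 1745 in mbf1 deletion against bna4 deletion, with 7 sterol genes higher there. The median of Htt103Q against Htt25Q was then −0.053 in place of −0.17, and 1 gene was higher in ume1 deletion against Htt25Q. In the comparisons with Htt103Q, 7 genes were lower in the bna4 deletion and 4 in the mbf1 deletion.

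Whether same-numbered arrays pair across groups is not settled by the residual correlations, which ran from −0.169 to 0.434. When the correlations of each array were averaged by replicate number, 8 of 15 arrays had their highest mean with their own number. Between Htt103Q and the ume1 deletion the correlations were 0.34 for array 1, −0.17 for array 2 and 0.43 for array 3. Htt103Q array 1 with ume1 array 3 gave −0.50, and Htt103Q array 3 with ume1 array 1 gave −0.35. The fit with the replicate number as a block called 425, 230 and 714 probe sets in the first set and 970 in mbf1 deletion against bna4 deletion, and gave 1 gene higher and 1 lower in Htt103Q against Htt25Q, 1 higher in ume1 deletion against Htt103Q and 3 lower in mbf1 deletion against Htt103Q. Within sets the block ended the calls of ERG24 in Htt103Q against Htt25Q and MVD1 in ume1 deletion against Htt103Q, and added ERG3 in Htt103Q against Htt25Q and ARE1 in mbf1 deletion against bna4 deletion. Deposited values on all arrays gave 1 higher in Htt103Q against Htt25Q, and 14 higher and 2 lower in mbf1 deletion against Htt103Q. Centred on array medians they gave 1 higher in Htt103Q against Htt25Q, 1 higher in ume1 deletion against Htt103Q, 2 lower in ume1 deletion against Htt25Q, 8 lower in bna4 deletion against Htt103Q (median −0.0092) and 10 lower in mbf1 deletion against Htt103Q (median −0.12). With the dimmest probe sets left out, 1 gene was higher in Htt103Q against Htt25Q. With only the groups compared, 8 were lower in bna4 deletion against Htt103Q and 3 in mbf1 deletion against Htt103Q.

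Leaving out 1 array at a time gave 191 to 559, 115 to 241 and 464 to 871 probe sets in the first set and 634 to 920 in mbf1 deletion against bna4 deletion. The lowest of these came without Htt103Q array 2 (191 and 115; without Htt103Q array 3, 217 and 130), ume1 array 2 (464) and bna4 array 2 (634). Sterol genes called ran from 0 to 1 higher and 0 to 3 lower in Htt103Q against Htt25Q (median −0.22 to −0.053, the last without Htt25Q array 1), 0 to 2 higher in ume1 deletion against Htt103Q, 1 to 2 higher and 1 to 3 lower in ume1 deletion against Htt25Q, 3 to 4 higher and 3 to 5 lower in mbf1 deletion against bna4 deletion (3 lower without bna4 array 1), and 1 to 2 lower in mbf1 deletion against Htt103Q. ERG5, with a difference of 0.02 and no call in ume1 deletion against Htt25Q, was called at −0.39 without Htt25Q array 1 and at −0.40 with array weights. Median centring changed the sign of IDI1 in bna4 deletion against Htt103Q, from 0.26 to −0.0092. In mbf1 deletion against Htt103Q it did so for ERG20 (0.49 to −0.073), ERG6 (0.0012 to −0.51) and ERG2 (0.12 to −0.41). ERG6 and ERG2 were not called there before centring, and IDI1 and ERG20 were not called after it. The cause of these changes was not tested.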
